A study of Mus musculus with 11 samples.

Results

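The 10 genes described here are Nefl, Nefm, Nefh, Stmn2, Tubb3, Sncg, Thy1, Rbpms, Rbpms2 and Gap43, which encode cytoskeletal proteins of the axon and general markers of retinal ganglion cells. They were listed by name, with no threshold on a measured value but with earlier results of these data known, from the 47069 genes counted in each library. All 10 passed the filter on low counts, as did 18188 genes in all. RNA-seq was made from retinas of C57BL/6 mice in 11 libraries that fall into 4 groups, namely 2 wild-type and 3 Kir2.1 libraries at postnatal day 4 (P4) and 3 of each at postnatal day 8 (P8). The Kir2.1 group carries Brn3b-cre, a Cre driver active in ganglion cells, together with a transgene from which Cre removes a floxed STOP cassette. The freed CAG promoter then drives an eYFP fusion of human Kir2.1, a potassium channel of the inward rectifier type that holds neurons near their resting potential. The control is wild type in the genotype field but Brn3b-cre in the extraction protocol, and the protocol puts the later age at P11 rather than P8. The field values are used below. The human channel has no line among the mouse gene IDs and was not analysed here, so the genotype labels were not checked through it.

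Ganglion cells are the only output neurons of the retina, and their long axons form the optic nerve. Neurofilaments of a light, a medium and a heavy chain fill those axons and set their calibre, with the heavy chain joining late in maturation, while tubulin, stathmins and GAP-43 serve the growing axon and its growth cone. Thy1, gamma-synuclein and the RNA-binding proteins Rbpms and Rbpms2 are widely used to count ganglion cells.

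The 5′ sequences of 3 of these genes were at hand in RefSeq (GRCm38.p6), each from 250 bases before to 50 bases after the annotated start. They are shown as the start regions of genes that fell together with age. Capitals mark the GC box (GGGCGG, either strand) and, in Rbpms2, the E-box CAGCTG. The windows are chr8:123411303-123411602 on the plus strand for Tubb3, chr9:65630332-65630631 on the plus strand for Rbpms2 and chr14:34374620-34374919 on the minus strand for Sncg.
Tubb3: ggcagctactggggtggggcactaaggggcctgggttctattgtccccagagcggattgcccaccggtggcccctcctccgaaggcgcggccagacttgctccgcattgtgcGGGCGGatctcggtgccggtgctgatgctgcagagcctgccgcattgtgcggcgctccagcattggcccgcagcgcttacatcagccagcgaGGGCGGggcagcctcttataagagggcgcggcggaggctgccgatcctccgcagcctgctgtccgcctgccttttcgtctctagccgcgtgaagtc
Rbpms2: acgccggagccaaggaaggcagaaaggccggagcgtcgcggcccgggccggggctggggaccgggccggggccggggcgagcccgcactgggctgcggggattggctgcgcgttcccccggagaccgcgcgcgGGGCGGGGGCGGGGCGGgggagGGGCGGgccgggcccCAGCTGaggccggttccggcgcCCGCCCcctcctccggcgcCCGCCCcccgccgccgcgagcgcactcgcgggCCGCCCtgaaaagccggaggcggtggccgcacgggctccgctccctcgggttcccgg
Sncg: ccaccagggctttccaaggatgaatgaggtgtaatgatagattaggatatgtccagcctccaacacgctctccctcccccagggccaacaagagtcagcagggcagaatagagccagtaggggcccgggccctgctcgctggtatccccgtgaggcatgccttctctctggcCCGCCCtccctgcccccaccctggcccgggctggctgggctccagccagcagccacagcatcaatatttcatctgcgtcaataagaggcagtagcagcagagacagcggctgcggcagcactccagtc
All 3 windows held a GC box, as did 35.7% of the 32851 RefSeq promoter windows of this length. The E-box was in 1 of the 3 and in 16.3% of all windows. None of the 3 held the TATA element TATAAA (13.6% of all windows), the POU4F core ATTAAT (4.75%) or the cyclic AMP response element TGACGTCA (1.79%), all searched on both strands. GC boxes in Rbpms2 overlap each other. These matches describe the letters of the windows only.

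Gene counts per library ranged from 9362215 to 12478838. The source field of the labels names ganglion cells, whereas the tissue is retina and no sorting step is described, and the libraries held transcripts of other cell types, such as the amacrine gene Gad1 at 88.3 to 251 CPM (counts scaled by library size and TMM) and the glial gene Rlbp1 at 45.6 to 129.6 CPM, beside the ganglion cell factor Pou4f2 at 2.68 to 20.4 CPM. A few libraries differed from others of their group. Wild-type P4 replicate 2 had a summed rod list (7 genes) of 909.8 CPM against 166 CPM in replicate 1, and a summed list of dividing cells (5 genes) of 828 against 2297 CPM. With 2 libraries in that group, which of them is unusual cannot be told. The rod list of the Kir2.1 P4 libraries lay between both, at 342 to 558 CPM. Wild-type P8 replicate 1 had 583 CPM of the rod list against 2293 and 5295 CPM in replicates 2 and 3. Kir2.1 P8 replicate 2 had counts in 31325 genes, against 22609 to 24591 genes in the other 10 libraries, and the smallest gene count total. Nothing in the labels says that the libraries of a group came from separate animals or litters, so the p-values measure the spread between these libraries.

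Transcripts of the light and medium neurofilament chains were 5.44-fold and 4.75-fold lower at P8 than at P4 in wild-type retina and fell in the Kir2.1 group too, while the heavy chain did not fall in either. Nefl, the light chain on which the other chains assemble (chr14:68083863-68089095, plus strand, GRCm38), measured 338 and 186 CPM in the P4 libraries of wild type, and 171, 57.4 and 162 CPM in those of Kir2.1. At P8 it stood at 47.6, 68.0 and 28.9 CPM in wild type and at 59.2, 35.3 and 40.8 CPM in Kir2.1. Every P8 wild-type library lay below both P4 ones, whereas in the Kir2.1 group the highest P8 library exceeded the lowest P4 one. The log2 fold change from P4 to P8 was -2.44 ± 0.45 (SE, edgeR adjusted p = 0.00818) in wild type and -1.53 ± 0.41 (adjusted p = 0.0251) in Kir2.1.

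Nefm encodes the medium chain (chr14:68082590-68124846, minus strand). It stood at 287 and 159 CPM in wild type and at 168, 52.0 and 161 CPM in Kir2.1 at P4. At P8 the values were 52.0, 66.2 and 22.8 CPM in wild type and 43.8, 38.3 and 42.4 CPM in Kir2.1. The ages did not overlap in either genotype. Of all genes tested, 16.9% lay wholly lower at P8 in wild type and 18.7% in Kir2.1. The log2 fold changes of Nefm were -2.25 ± 0.47 (adjusted p = 0.0168) and -1.61 ± 0.43 (adjusted p = 0.0253). Nefl and Nefm lie on opposite strands and share 1108 bases of exon in the GENCODE annotation. The strand setting of the authors' counting is not given in the sources used here, so how reads from that stretch were counted is not known. Records that the counting marked as ambiguous were left out, so such reads may be missing from both genes.

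Nefh, the heavy chain, which appears latest in developing axons (chr11:4938754-4948064, minus strand), stood at 10.9 and 19.1 CPM in wild type and at 10.8, 8.29 and 12.4 CPM in Kir2.1 at P4. At P8 it stood at 12.7, 22.3 and 19.3 CPM in wild type and at 31.6, 19.4 and 27.5 CPM in Kir2.1. All 3 Kir2.1 libraries at P8 lay above all 3 at P4, as in 19.4% of all genes, whereas the wild-type ages overlapped. It rose in Kir2.1 by 1.32 ± 0.28 on the log2 scale (adjusted p = 0.00785) and changed by 0.27 ± 0.31 (adjusted p = 0.701) in wild type. The difference between these changes is the interaction given further on, and it was not called.

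**Figure D1:**
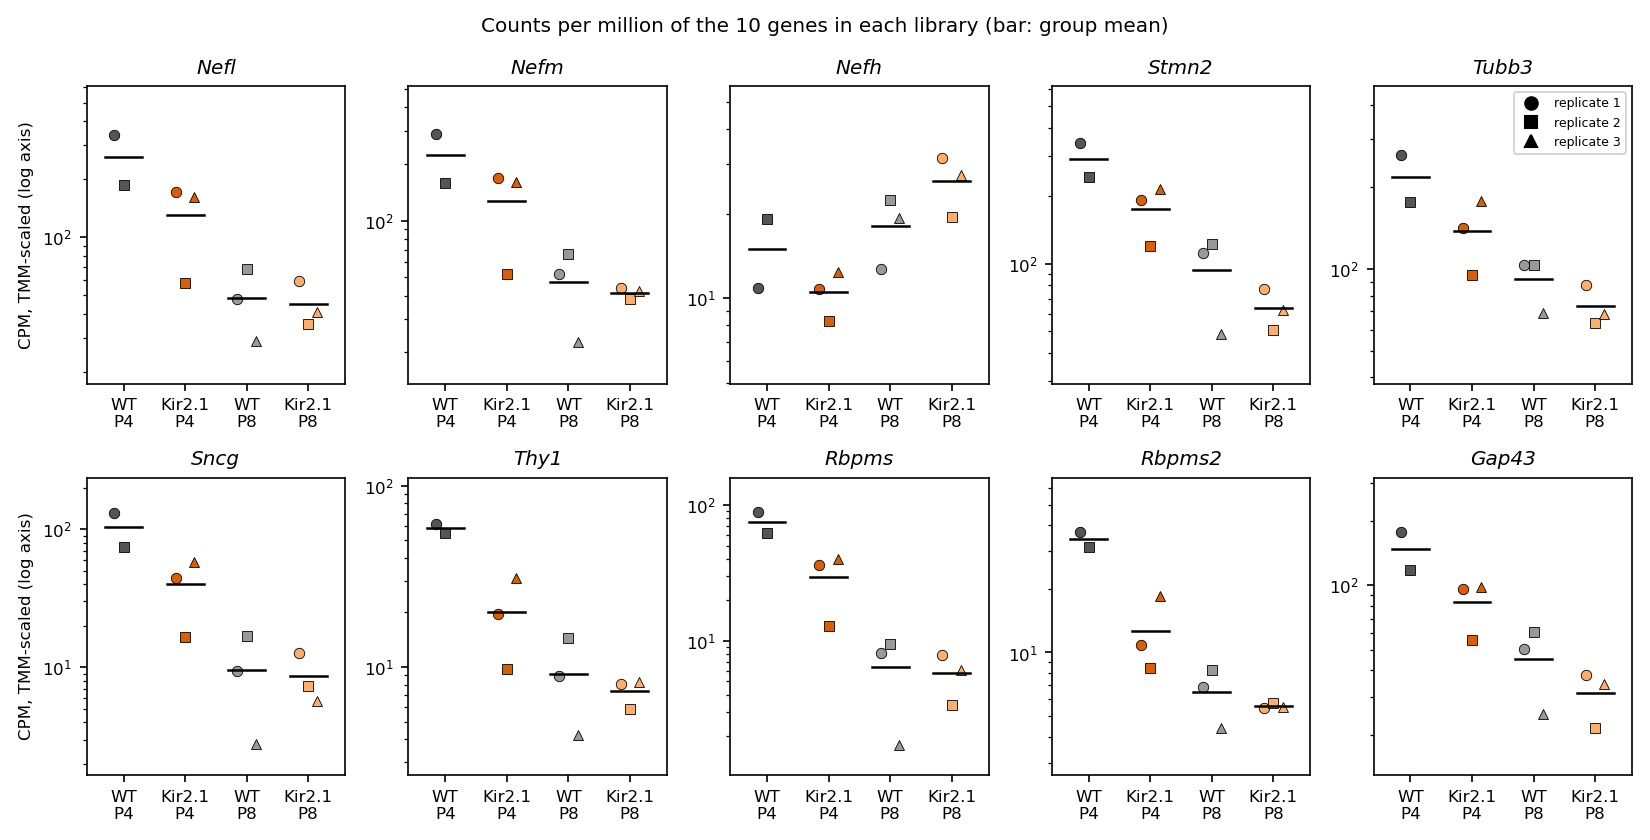
CPM (TMM-scaled, log axis) of each of the 10 genes by group, with a symbol per replicate and a bar at the group mean. In 9 of the 10 genes, and in 16.9% of all genes tested, the P8 libraries of wild type sit below its P4 libraries, while Nefh sits between 8.29 and 31.6 CPM with 2 of the 3 Kir2.1 P8 libraries above all others.

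The growth-associated members fell at P8 in both genotypes. Stmn2, a stathmin that binds tubulin in growth cones (chr3:8509360-8561606, plus strand), stood at 342 and 243 CPM in wild type and at 191, 119 and 216 CPM in Kir2.1 at P4. At P8 it stood at 111, 122 and 48.9 CPM in wild type and at 76.8, 50.9 and 62.3 CPM in Kir2.1. Neither genotype's ages overlapped. The fold changes on the log2 scale were -1.64 ± 0.34 (adjusted p = 0.0164) and -1.47 ± 0.32 (adjusted p = 0.00809).

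Gap43 encodes a membrane protein of the growth cone (chr16:42248442-42340651, minus strand). Its P4 values were 178 and 118 CPM in wild type and 96.2, 55.3 and 98.2 CPM in Kir2.1. Its P8 values were 50.7, 60.5 and 25.0 CPM and 38.0, 21.6 and 34.7 CPM. It fell by 1.705 ± 0.36 (adjusted p = 0.0166) in wild type and by 1.40 ± 0.33 (adjusted p = 0.0133) in Kir2.1 on the log2 scale, with no overlap between ages.

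Tubb3, the neuron-specific beta-tubulin (chr8:123411424-123422015, plus strand), had the smallest estimated change of the 9 genes that fell. It stood at 262 and 176 CPM in wild type and 141, 94.9 and 178 CPM in Kir2.1 at P4. The P8 values were 104, 104 and 69.0 CPM, then 87.1, 63.3 and 68.4 CPM. The P4 and P8 libraries of each genotype did not overlap. Its log2 fold changes were -1.25 ± 0.26 (adjusted p = 0.0178) and -0.92 ± 0.24 (adjusted p = 0.0228). Tubb3 lies inside the longer gene model Gm20388 on the same strand, with no shared exon bases in GENCODE.

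Sncg, Rbpms and Thy1 had the largest falls in wild type. Sncg encodes gamma-synuclein (chr14:34370274-34374789, minus strand) and stood at 132 and 74.8 CPM in wild type and 44.7, 16.5 and 58.3 CPM in Kir2.1 at P4. At P8 it stood at 9.35, 16.8 and 2.77 CPM in wild type and 12.8, 7.31 and 5.71 CPM in Kir2.1. The P8 wild-type libraries spread over a wide range yet all lay below both P4 ones. Its log2 fold changes were -3.43 ± 0.62 (10.7-fold lower, adjusted p = 0.00757) and -2.20 ± 0.57 (adjusted p = 0.0216).

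Thy1, a surface glycoprotein anchored by lipid (chr9:44043384-44048579, plus strand), stood at 61.6 and 54.7 CPM in the wild-type P4 libraries, against 19.5, 9.75 and 31.0 CPM in Kir2.1. At P8 the values were 8.89, 14.4 and 4.23 CPM in wild type and 8.03, 5.84 and 8.30 CPM in Kir2.1. The 2 wild-type P4 libraries were close together and far above every other library. The age changes on the log2 scale were -2.67 ± 0.46 (adjusted p = 0.0056) and -1.43 ± 0.43 (adjusted p = 0.0405). Vascular cells and fibroblasts can also express Thy1, and their summed list (6 genes) ranged from 37.1 to 44.7 CPM in wild-type P4, 10.7 to 37.8 CPM in Kir2.1 P4, 23.8 to 100.2 CPM in wild-type P8 and 28.6 to 114 CPM in Kir2.1 P8. Its part in the Thy1 values was not tested.

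The RNA-binding pair fell in both genotypes as well. Rbpms (chr8:33782643-33929863, minus strand) stood at 88.0 and 61.8 CPM in wild type and 35.9, 12.8 and 39.98 CPM in Kir2.1 at P4. At P8 it stood at 8.15, 9.36 and 1.71 CPM in wild type, where the lowest value rests on 21 counts, and 7.87, 3.34 and 6.07 CPM in Kir2.1. It had the largest wild-type age change of the 10, -3.55 ± 0.58 (11.7-fold lower, adjusted p = 0.00422), and -2.34 ± 0.54 (adjusted p = 0.0121) in Kir2.1. The antisense gene Gm26632 overlaps its gene body but shares no exon bases with it.

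Rbpms2 (chr9:65629648-65660528, plus strand) stood at 37.3 and 31.5 CPM in wild type and 10.9, 8.44 and 18.5 CPM in Kir2.1 at P4. At P8 it stood at 6.87, 8.25 and 4.39 CPM in wild type and 5.47, 5.74 and 5.53 CPM in Kir2.1. The Kir2.1 P8 libraries differed least among themselves (mean 5.58 ± 0.142 CPM, SD, n = 3). It had the smallest adjusted p of the 10 for age in wild type, at -2.40 ± 0.32 on the log2 scale (edgeR adjusted p = 0.00134), and changed by -1.18 ± 0.30 (adjusted p = 0.0202) in Kir2.1.

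In all, 9 of the 10 genes fell from P4 to P8 in wild type, where 3.58% of all genes tested fell, and none rose, where 0.803% of all genes did. In Kir2.1, 9 of the 10 fell (8.73% of all genes) and 1, Nefh, rose (7.93% of all genes). The median log2 fold change of the 10 came to -2.32 for wild type and -1.45 for Kir2.1, beside 0.03 and 0.00 over all genes. A total-RNA sample cannot tell fewer ganglion cells apart from less RNA of these genes per cell, and these values are shares of all retinal RNA. The rod list ranged from 166 to 909.8 CPM at P4 in wild type and 583 to 5295 CPM at P8, and in Kir2.1 from 342 to 558 CPM and from 4693 to 5097 CPM. The list of dividing cells fell in all 5 of its genes in both genotypes. The part of these shifts in the age changes was not tested. With all libraries, 798 of 18188 genes were called for age in wild type and 3029 in Kir2.1. Wild-type P4 replicate 2 and wild-type P8 replicate 1 were also left out together, which keeps 1 wild-type P4 library. The median log2 fold change of the 10 was then -2.65 in wild type and -1.47 in Kir2.1.

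The wild-type count depended on which P4 library was kept. All 9 passed without replicate 2, among 1339 of 19822 genes. Without wild-type P4 replicate 1, 2 of the 10 passed (Rbpms and Rbpms2), among 163 of 19801 genes. A fit of the wild-type libraries alone called only Rbpms2 (adjusted p = 0.0309) of the 10, among 113 of 16979 genes, with the other 8 between 0.0504 and 0.113, and its fold changes were close to those above (-2.46 for Nefl and -3.44 for Sncg). In Kir2.1 the count was 2 without P8 replicate 2 (Nefh and Stmn2), 3 without P4 replicate 3, 4 without P4 replicate 1 and 4 without P8 replicate 3. In the same order 2012, 2076, 1764 and 1841 genes were called in all, and Nefh and Stmn2 passed in every one of these fits. Each change kept its sign with any 1 library left out, except Nefh in wild type, which ranged from -0.08 to 0.74.

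**Figure D2:**
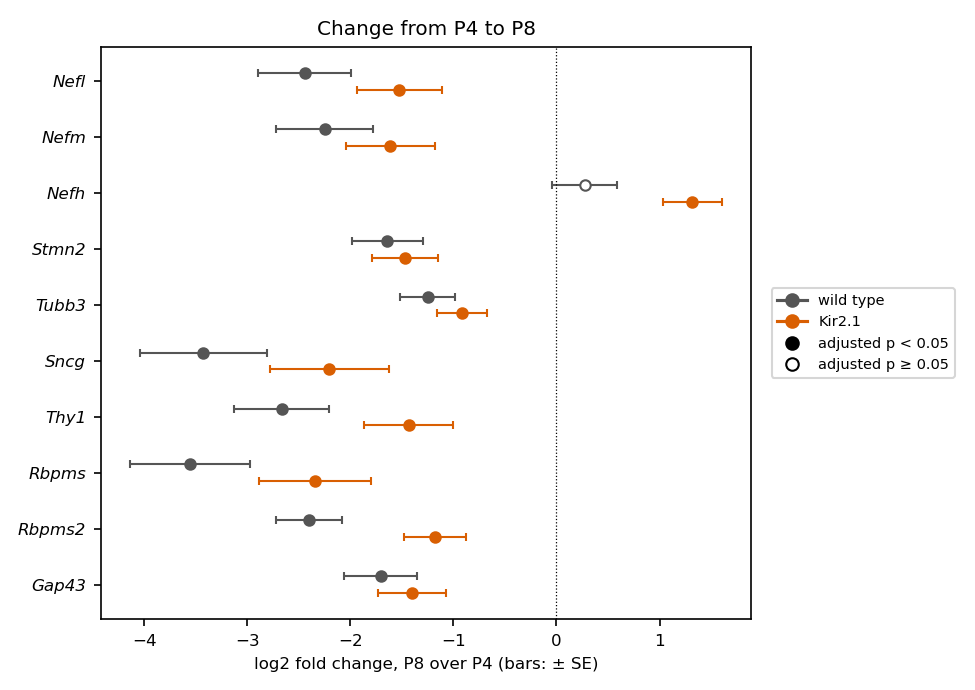
Log2 fold change from P4 to P8 (points) with its standard error (bars) for the 10 genes in wild type and Kir2.1, filled where the adjusted p was under 0.05. Nefh lies at 0.27 in wild type and 1.32 in Kir2.1, and the other 9 genes lie between -3.55 and -0.92.

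At P4 all 10 genes were lower on average in Kir2.1 than in wild-type retina, and none passed the test over all genes. The log2 fold changes ran from -1.54 for Thy1 to -0.52 for Nefh, with a median of -0.92 beside 0.01 over all genes. No gene at all was called in this comparison (0% of 18188), and the edgeR adjusted p of the 10 lay between 0.583 and 0.73. At an unadjusted p under 0.05, 7 of the 10 were lower, as were 4.72% of all genes. That count came to 2 without Kir2.1 P4 replicate 2 (2.67% of all genes). The median log2 fold change came to -0.69 without wild-type P4 replicate 1. It came to -1.28 without replicate 2, which was the lower of the pair for 9 of the 10 genes. With wild-type P8 replicate 1 left out as well, it was also -1.28. Each of these fits keeps 1 wild-type P4 library.

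The 4 largest estimates at P4 were those of Thy1, Rbpms2, Sncg and Rbpms. Thy1 was 2.90-fold lower (log2 -1.54 ± 0.45, edgeR adjusted p = 0.677). Its mean level was 58.2 ± 4.89 CPM in the wild-type pair (SD) and 20.1 ± 10.6 CPM in the 3 Kir2.1 libraries. Rbpms2 was 2.72-fold lower (-1.45 ± 0.31, edgeR adjusted p = 0.583), with means of 34.4 ± 4.11 and 12.6 ± 5.27 CPM. Sncg was lower by 1.38 ± 0.58 and Rbpms by 1.34 ± 0.54 on the log2 scale. Both Rbpms genes, Sncg and Thy1 had every Kir2.1 library below both wild-type libraries.

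Of the other 6, Nefl changed by -1.01 ± 0.44, Gap43 by -0.83 ± 0.35 and Stmn2 by -0.74 ± 0.34, and none of these had groups that overlapped. Nefm (-0.81 ± 0.46), Tubb3 (-0.67 ± 0.26) and Nefh (-0.52 ± 0.31) did overlap. So 7 of the 10 had Kir2.1 libraries wholly below wild type, as had 14.4% of all genes tested. Within the Kir2.1 P4 group, replicate 2 was the lowest library for all 10 genes, and wild-type P4 replicate 1 was the higher of its pair for 9 of them. The same Kir2.1 library held 0.691 CPM of 4 Y-linked genes summed, against 89.0 and 107 CPM in the others of its group and 187 and 216 CPM in wild-type P4. The part of sex in these values was not tested.

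**Figure D3:**
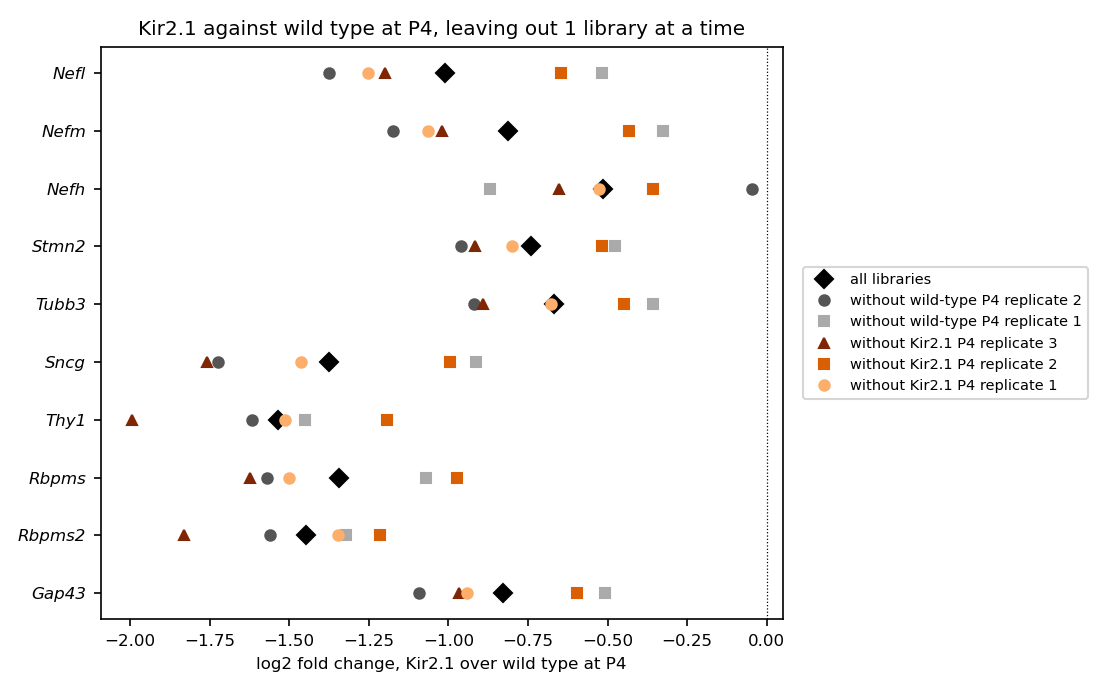
Genotype difference (log2, Kir2.1 minus wild type) at P4 for each gene, with all libraries (diamonds) and with 1 P4 library left out at a time (other symbols). Every point lies below 0, from -1.99 for Thy1 without Kir2.1 P4 replicate 3 to -0.05 for Nefh without wild-type P4 replicate 2.

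Leaving out any 1 P4 library kept the sign of all 10 genes. Without wild-type P4 replicate 1, Nefl, Nefm, Tubb3, Stmn2, Gap43 and Sncg came to -0.52, -0.33, -0.36, -0.48, -0.51 and -0.91, while Nefh came to -0.05 without replicate 2. The count of calls changed with no filter on low counts: with every gene that had a count kept, 9 of the 10 passed at P4 (all but Nefh), among 339 genes called of 36534. A filter at a mean of 1 CPM gave 0, as did the main filter. Without a filter the median log2 fold change stayed near the main one (-0.93 against -0.92). The smallest edgeR adjusted p of the 10 went from 0.583 to 1.17e-08. The reason was not tested. DESeq2 called Rbpms2 (adjusted p = 0.0275), among 21 genes in all. The list of other ganglion cell genes (8 genes) summed to 522 and 363 CPM in wild-type P4 and to 274, 112 and 286 CPM in Kir2.1 P4, so the library lowest for the 10 genes was also the lowest for that list. None of its 8 genes was called. The Mueller glia list (6 genes) lay higher, at 1218, 1308 and 1049.6 CPM in Kir2.1 P4 against 995 and 962 CPM in wild-type P4, and all 5 genes of dividing cells and all 4 of microglia had higher fitted levels in Kir2.1, with none called. Other lists had mostly lower fitted levels, with 5 of 5 horizontal cell genes (median log2 fold change -0.43), 5 of 7 bipolar cell genes (-0.30) and 5 of 7 rod genes (-0.32). So had 4 of 5 tested genes of vascular cells and fibroblasts (-1.07), which can also express Thy1, 3 of 4 of astrocytes (-0.22) and 5 of 8 of amacrine cells (-0.06). Again none was called. Their part in the P4 differences was not tested.

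At P8 none of the 10 passed (0% of all genes did), the adjusted p lay between 0.699 and 0.972, and at an unadjusted p under 0.05 none of the 10 differed, against 6.82% of all genes. The changes of 9 genes were negative and that of Nefh was 0.53 ± 0.28, and in all 10 genes the groups overlapped (5.11% of all genes had Kir2.1 wholly lower and 5.5% wholly higher). The widest negative ones were Stmn2 at -0.57 ± 0.31 and Gap43 at -0.52 ± 0.33, and the median was -0.20. That median came to 0.17 without wild-type P8 replicate 2, to -0.40 without Kir2.1 P8 replicate 1, to -0.55 without wild-type P8 replicate 3 and to -0.42 with voom. Without wild-type P8 replicate 3, 2 of the 10 were lower at an unadjusted p under 0.05, as were 10.2% of all genes. None of the 10 passed over all genes in that fit, where 219 of 18032 did. Wild-type P8 replicate 2 was the highest of its group for all 10 genes and held 0.17 CPM of the summed Y-linked genes, against 43.2 and 172 CPM in the others. Wild-type P8 replicate 3 was the lowest wild-type library for 9 of the 10 genes and held 5295 CPM of the rod list, near the 4693 to 5097 CPM of the Kir2.1 libraries. The amacrine list (8 genes) summed to 4036, 2911 and 1653 CPM in wild type and 2049, 1358 and 2207 CPM in Kir2.1, with 8 of 8 genes lower in Kir2.1 (median -0.54). Lower too were 6 of 8 other ganglion cell genes (-0.34), 3 of 4 of astrocytes (-0.30) and 4 of 6 of cones (-0.03). Higher in Kir2.1 were 7 of 7 rod genes (median 0.89) and 7 of 7 bipolar cell genes (0.19). All 6 genes of Mueller glia (0.19), all 5 of dividing cells (0.41) and all 4 of microglia (0.50) were higher as well. None of these genes was called. Whether these cell types bear on the values of the 10 genes was not tested. Without the filter on low counts, Stmn2 alone of the 10 was called (adjusted p = 0.013), among 447 of 36534 genes.

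**Figure D4:**
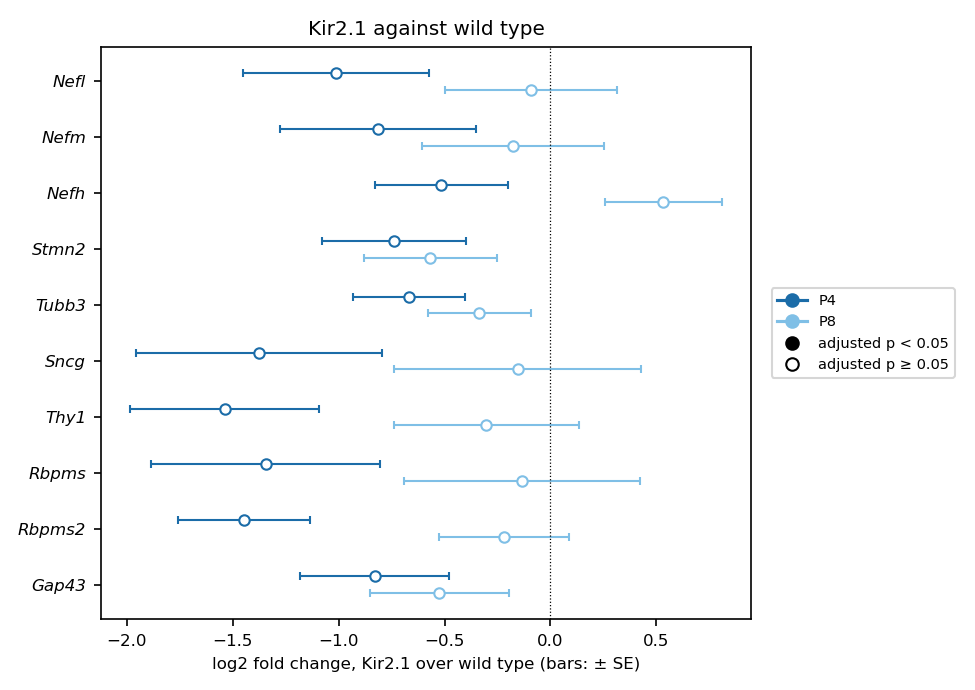
Genotype difference (log2, Kir2.1 minus wild type, points) with its standard error (bars) at P4 and at P8, open where the adjusted p was not under 0.05. All 20 points are open, the P4 points lie between -1.54 and -0.52, and the P8 points between -0.57 and 0.53.

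Averaged over ages, 5 of the 10 (Stmn2, Tubb3, Thy1, Rbpms2 and Gap43) were lower at an unadjusted p under 0.05, as were 7.38% of all genes, and none passed over all genes (0% did). Rbpms2 changed by -0.83 ± 0.22 (edgeR adjusted p = 0.348) and Thy1 by -0.92 ± 0.31 (adjusted p = 0.363). Without wild-type P8 replicate 3, Stmn2, Thy1, Rbpms2 and Gap43 passed, with adjusted p from 0.0327 to 0.047, among 609 genes in all. Without wild-type P4 replicate 1, 2 of the 10 were lower at an unadjusted p under 0.05, as were 6.49% of all genes. With no filter on low counts 9 of the 10 passed, among 901 of 36534 genes.

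The genotype difference itself was tested for a change between ages. None of the 10 passed (0% of all genes did). Nefh (1.05 ± 0.42) and Rbpms2 (1.23 ± 0.44) had an unadjusted p under 0.05, as had 3.09% of all genes, and all 10 estimates were positive. With 1 library left out at a time, 1 to 4 of the 10 had such a p, as had 2.44% to 7.74% of all genes. Because this contrast and the P4 comparison share libraries, the signs are not separate evidence. Without the filter, Nefl, Sncg and Rbpms were called, among 136 of 36534 genes.

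In the authors' deposited table for P4, Thy1 (-1.49, adjusted p = 0.00268) and Rbpms2 (-1.17, adjusted p = 0.0372) passed 0.05, among 314 of 13830 genes with an adjusted p. In the authors' deposited table for P8, Stmn2 (-0.89, adjusted p = 0.0016) and Gap43 (-0.80, adjusted p = 0.042) passed, among 974 of 13396 genes, and Tubb3 (-0.54, adjusted p = 0.0537) did not. All 10 log2 fold changes for P4 in the authors' deposited table were negative, as were 9 of 10 for P8, where Nefh stood at 0.54. The authors' comparisons are not the same as those above, where edgeR called no gene at either age. Over 18171 genes at P4, 72.9% had the same sign in both (Spearman correlation 0.601). Over 18178 genes at P8, 86.6% had (0.856). The reason for the difference was not tested.

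Levels were compared between genes as CPM per kb of exons, with all annotated exons of a gene counted. That came to 852 bases for Sncg, 5602 for Stmn2, 2506 for Rbpms2 and 6556 for Rbpms. It is not the length of the transcript present, and the order depends on it. In plain CPM the wild-type P4 means were 293 for Stmn2, 262 for Nefl, 103 for Sncg, 74.9 for Rbpms and 34.4 for Rbpms2. In wild-type P4 libraries Sncg (121 ± 47.3 CPM per kb, SD, n = 2) and Tubb3 (117 ± 32.4) led, followed by Gap43 (97.1 ± 27.8), Nefl (77.5 ± 32.0), Stmn2 (52.3 ± 12.5), Nefm (38.6 ± 15.7), Thy1 (19.4 ± 1.63), Rbpms2 (13.7 ± 1.64), Rbpms (11.4 ± 2.82) and Nefh (3.75 ± 1.46). Of these neighbours, only Nefm above Thy1, Thy1 above Rbpms2 and Rbpms above Nefh kept libraries that did not overlap. By P8 the order in wild type was Tubb3 (49.3 ± 10.7 CPM per kb, n = 3), Gap43 (29.8 ± 12.04), Stmn2 (16.8 ± 7.03), Nefl (14.2 ± 5.80), Sncg (11.3 ± 8.22), Nefm (8.13 ± 3.83), Nefh (4.53 ± 1.22), Thy1 (3.06 ± 1.695), Rbpms2 (2.60 ± 0.78) and Rbpms (0.977 ± 0.627). Only Rbpms2 stood clear of the next gene, Rbpms, there. Sncg moved from the first place to the fifth and Nefh from the last to the seventh. The Kir2.1 order at P4 opened with Tubb3 (73.9 ± 22.3), Gap43 (54.6 ± 15.9) and Sncg (46.8 ± 25.0), and at P8 with Tubb3 (39.1 ± 6.71) and Gap43 (20.6 ± 5.70).

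Ratios within a library show how the chains moved against each other, as a description with no test. The log2 ratio of Nefh over Nefl lay between -4.96 and -2.79 in the 5 P4 libraries and between -1.90 and -0.57 in the 6 P8 libraries, so the ages did not overlap. Nefm over Nefl stayed between -0.43 and 0.13 in all 11 libraries, with the shared exon bases above. Gap43 over Stmn2 also held a narrow range, from -1.24 to -0.84. Tubb3 over Rbpms, a general neuronal transcript over a ganglion cell one, averaged 1.54 ± 0.04 (SD, n = 2) in wild-type P4, 2.34 ± 0.48 (n = 3) in Kir2.1 P4, 4.14 ± 1.01 (n = 3) in wild-type P8 and 3.72 ± 0.43 (n = 3) in Kir2.1 P8.

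**Figure D5:**
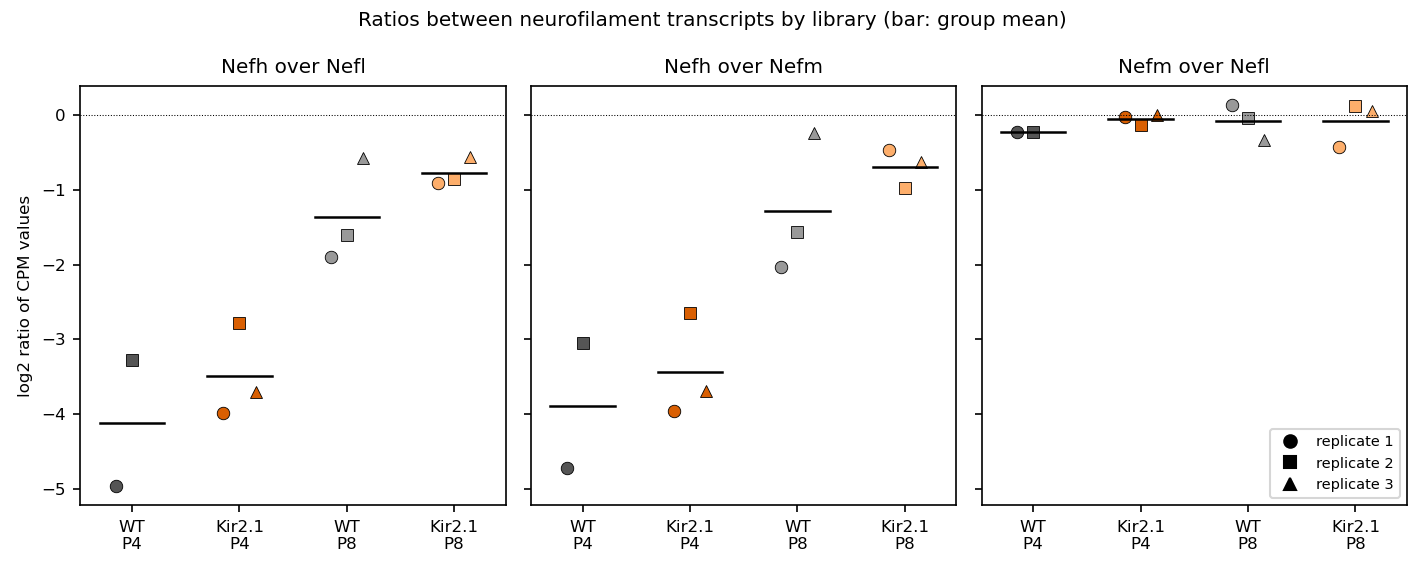
Log2 ratios of CPM between the neurofilament transcripts by group, with a symbol per replicate and a bar at the group mean. Nefh over Nefl lies at or below -2.79 at P4 and at or above -1.90 at P8, while Nefm over Nefl stays between -0.43 and 0.13.

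Of the other genes of the axonal cytoskeleton, some were called with age and none between genotypes at either age. More of them had lower than higher fitted levels in Kir2.1 at both ages. At P4 these were 9 of 11 other tubulins and stathmins (median log2 fold change -0.56), 11 of 11 microtubule-binding proteins (-0.34), 7 of 8 filament and scaffold genes (-0.25), 7 of 8 transport motors (-0.20) and 9 of 10 growth cone and axon surface genes (-0.30). At P8 they were, in the same order, 7 of 11 (-0.12), 9 of 11 (-0.28), 7 of 8 (-0.19), 6 of 8 (-0.13) and 9 of 10 (-0.26). Over all genes 48.7% were lower at P4 and 49.4% at P8. The age counts that follow stand beside 3.58% of all genes lower and 0.803% higher in wild type, and 8.73% lower and 7.93% higher in Kir2.1. Of 11 other tubulins and stathmins, 6 fell in wild type and 6 in Kir2.1, led in wild type by Tuba1c (-3.997 ± 0.83, adjusted p = 0.0164) and Tubb6 (-2.90 ± 0.35, adjusted p = 0.000598) and in Kir2.1 by Tubb6 (-3.02 ± 0.32, adjusted p = 0.000152) and Tuba1c (-2.73 ± 0.72, adjusted p = 0.0234). Of 11 microtubule-binding proteins 3 fell in wild type and 2 in Kir2.1, with Dcx, the doublecortin of migrating and growing neurons, the lowest at -1.62 ± 0.31 and -1.81 ± 0.29. Of 8 other intermediate filament and spectrin-ankyrin genes none was called in wild type, and Nfasc, an adhesion molecule of the axon initial segment, rose in Kir2.1 (1.27 ± 0.21, adjusted p = 0.00182).

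For transport motors the calls were near those shares. Of 8, the kinesin Kif5a fell in wild type (-0.92 ± 0.23), and in Kir2.1 Kif3a fell (-0.46 ± 0.13) and Kif1b rose (0.30 ± 0.09). Of 10 genes of the growth cone and axon surface 4 fell in wild type, led by the adhesion molecules Chl1 (-1.88 ± 0.37) and L1cam (-1.22 ± 0.25), and 5 in Kir2.1, led by L1cam (-1.02 ± 0.23) and Cntn2 (-0.85 ± 0.25). Other ganglion cell genes fell in 5 of 8 cases in wild type (3.58% of all genes) and 4 of 8 in Kir2.1 (8.73%), led by the transcription factor Pou4f1 (-3.87 ± 0.65 and -2.84 ± 0.62) and the vesicular glutamate transporter Slc17a6 (-3.49 ± 0.56 and -2.67 ± 0.54).

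The genes whose pattern over the 11 libraries was most like the mean of the 10 were sought among 10303 genes with a mean of at least 10 CPM, by the SD of the log2 ratio to that mean. The nearest that are not among the 10 were Ptpn5 (SD 0.294), Pik3cd (0.309), Gng4 (0.314), Akap12 (0.325) and Rbms3 (0.336). Among the 10, Stmn2 and Gap43 were nearest to each other (0.108), as were Nefl and Nefm (0.187) and Thy1 and Rbpms2 (0.323). Tubb3 was nearest to the tubulin Tubb2b (0.120), Sncg to Slc17a6 (0.325), Rbpms to Sncg (0.334) and Nefh to Ntm (0.224). Nefh lay farthest from the mean of the 10, at 1.40.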

How the data were processed

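Total RNA of dissociated retina was sequenced, and for every library the authors deposited raw counts (whole numbers) by Ensembl gene. Per the submitters' processing notes, cutadapt 1.18, STAR 2.5.0c, SAMtools 1.9, bedtools 2.26.0, HTSeq 0.6.1, DESeq2 and the build mm10 were used; annotation and strand setting are not given in the sources used here. Lines that name no gene (74.6% to 79.8% of records) were left out. Per the file headers, the authors' deposited comparison tables hold a mean signal, a log2 fold change with its error, a test score and a p-value with its adjusted form.

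Here counts were filtered by filterByExpr (18188 genes kept), scaled by TMM (factors 0.964 to 1.05) and fitted with edgeR 4.0.16 (limma 3.58.1, R 4.3.3) to 4 group means over all 11 libraries, with 7 residual degrees of freedom. Quasi-likelihood F tests are two-sided, with Benjamini-Hochberg adjustment over all genes and a threshold of 0.05. A gene is called where its adjusted p is under that threshold. The SE is the size of the log2 fold change over the square root of F. CPM are TMM-scaled, and log2 CPM for likeness used a prior of 0.5 counts. Symbols matched 46488 of 47069 IDs, and coordinates come from GENCODE M21 (GRCm38), the same assembly as mm10. The scripts were tested on simulated data.

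The 10 genes and all lists were chosen with earlier results of these data known. All 10 genes are named, and of the other lists at most the 2 highest and 2 lowest called changes per comparison. Alternatives were DESeq2 1.42.0 (test and size factors), voom with quality weights, other filters, leaving out dominant genes, a replicate block, fits of the groups compared alone, each library left out, and, chosen after seeing the data, wild-type P4 replicate 2 and wild-type P8 replicate 1 left out together. A few genes of the lists are not reported here.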

Additional observations from a re-analysis of the deposited data

How the results depend on the processing

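Of 960 recomputed values for the 10 genes, 864 kept their direction and side of the threshold, 46 lost and 27 gained a call, and 23 changed sign. The main counts of called genes at P4, at P8, averaged over ages and for the difference between ages were 0 each. In the same order, no filter on low counts gave 9, 1, 9 and 3, and a filter at a mean of 1 CPM gave 0 each. DESeq2 gave 1 at P4 and 0 in the others. For age in wild type (9 called), a fit of the wild-type libraries alone gave 1, among 113 genes of 16979 tested. With 1 library left out at a time, the counts ranged from 2 to 9 for age in wild type (2 without wild-type P4 replicate 1), from 2 to 10 for age in Kir2.1 (2 without Kir2.1 P8 replicate 2) and from 0 to 4 averaged over ages (4 without wild-type P8 replicate 3), and stayed at 0 for the other 3 comparisons. The cause was not tested.

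Signs turned only in changes that were not called. Voom gave -0.0226 for Nefh averaged over ages and -0.021 for Stmn2 in the difference between ages. Leaving out wild-type P4 replicate 2 and wild-type P8 replicate 1 together gave 0.0777 for Rbpms at P8. With 1 library left out, the difference between ages ranged from -0.0178 to 0.57 for Gap43 and from -0.14 to 0.40 for Stmn2, Nefh from -0.17 to 0.24 averaged over ages and from -0.0809 to 0.74 for age in wild type. At P8 Nefl ranged from -0.36 to 0.24, Nefm from -0.51 to 0.15, Sncg from -0.60 to 0.52, Thy1 from -0.65 to 0.18 and Rbpms from -0.59 to 0.25. Whether the replicate numbers pair the libraries is not known. The correlation of deviations over 15 same-numbered pairs ran from -0.0583 to 0.111, with 3 over 0.1. These are deviations from means of few libraries, and pairs with different numbers were not compared, so they cannot decide it. The fit with the replicate block called 9 for age in wild type, 9 for age in Kir2.1 (Thy1 came to an adjusted p of 0.0725) and 0 elsewhere. It left 3 of the 10 lower at an unadjusted p under 0.05 at P4 (4.02% of all genes), against 7 without the block, and gave -0.00787 for Nefh averaged over ages.

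With 2 wild-type P4 libraries, leaving 1 out assumes that the lone one varies like the other groups. Low counts limit Rbpms and Sncg in wild-type P8 replicate 3, with 21 and 34 counts.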
